A study of Mus musculus with 5 samples.

Results

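Nonclassical patrolling monocytes of the mouse lung were read from single-cell RNA sequencing of whole neonatal and adult lungs. The cells were 692 barcodes of the 12707 that passed the quality filter in 4 unsorted libraries, and of 13200 in all 5 libraries of the series. A barcode was counted as a member when it held more than 700 and fewer than 8000 genes, less than 5% of its counts from mt- features, and at least 2 of the 5 genes Adgre4, Cd300e, Fcgr4, Clec4a1 and Cd300ld. Members also had less than 1000 CPM (counts scaled to a total of 1000000) of C1qa, C1qb and C1qc together, and no count of Cd79a or Cd3e. These values chose the members, so levels of those genes describe the rule and are not findings.

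Nonclassical monocytes are the monocytes of mouse blood with little Ly6C on their surface, and they crawl along the inner wall of small vessels, which the lung holds in great number. They are known for the fractalkine receptor Cx3cr1 and for their need of the nuclear receptor Nr4a1, and they take up immune complexes through the Fc receptor that Fcgr4 encodes. Classical monocytes carry Ly6c2 and the chemokine receptor gene Ccr2 and can turn into nonclassical ones in the blood.

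C57BL/6J pups less than 12 h old were kept with their mothers in hyperoxia (more than 95% O2) or in room air for 3 days and then recovered in room air. Lungs were dissociated at postnatal day 7 (pnd7) or 60 (pnd60), which gave the libraries air pnd7, hyperoxia pnd7, air pnd60 and hyperoxia pnd60. Dams were moved between litters every 24 h, and the number of mice behind each unsorted library is not given in the sources used here. Each condition had 1 library, so no comparison could be tested, and the intervals below (95%, exact) cover counting error only.

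Members numbered 96 in air pnd7, 77 in hyperoxia pnd7, 223 in air pnd60 and 296 in hyperoxia pnd60. Their summed unique molecular counts were 646765, 760988, 911088 and 1278867, and the median member held 5022, 6437, 3218 and 3326.5 counts in the same order. The pnd7 members thus held more counts per barcode than the pnd60 members. No barcode of a member occurred in another library, although 5 to 7 barcodes were shared by each pair of unsorted libraries.

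At the edge of the rule, 37, 29, 87 and 131 members held exactly 2 of the 5 genes, and 133, 56, 192 and 219 filtered barcodes held exactly 1 and stayed outside. The fractalkine receptor gene Cx3cr1, which the rule did not use, stood at 39.9, 22.1, 177 and 158 CPM in the barcodes with exactly 1 gene. In members with exactly 2 genes it stood at 210, 179, 402 and 355 CPM, and in members with all 5 at 869, 746, 723 and 869 CPM. The limit on C1q fell in a gap, since the highest member of each library lay at 320 to 890 CPM and the lowest barcode left out by it at 1393 to 11229 CPM.

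The label was then checked against genes outside the rule. Cx3cr1 stood at 370 CPM in air pnd7, 363 in hyperoxia pnd7, 560 in air pnd60 and 522 in hyperoxia pnd60, and was detected in 71.3% to 81.8% of the members. B cells, which should lack the gene and were taken as barcodes with Cd79a and Cd79b, held 1.14, 0, 7.64 and 7.81 CPM, so the level in members was well above the background of free RNA. Among the genes that stood highest beside all other filtered barcodes in each of the 4 libraries were Gm36161, Gm9733, the C-type lectin gene Clec4a3, the inhibitory receptor gene Cd300a, the TNF receptor gene Tnfrsf1b, the growth factor receptor gene Csf1r, the kinase gene Fgr and Cx3cr1 itself. Their log2 ratios were at least 3.37 for Gm36161, 3.30 for Clec4a3, 3.16 for Csf1r and 3.08 for Cx3cr1 in every library. Because members were picked by genes measured in the same cells, these values are a description.

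The members were not uniform. In each library they included barcodes that carried genes of other lung cells, and the group with the most counts held 3 or more genes of a list of 10 alveolar macrophage genes. This group counted 14 members in air pnd7, 9 in hyperoxia pnd7, 30 in air pnd60 and 40 in hyperoxia pnd60, and because its barcodes were deep it carried 27.8%, 29.1%, 29.3% and 30.2% of all member counts. At pnd60 the division was sharp, with 2 members in each library at exactly 3 of the 10 genes and 28 and 38 members at 4 or more, while 19 and 40 members held exactly 2. In hyperoxia pnd7, 1 member held exactly 3, 9 held exactly 2 and 8 held 4 or more. Air pnd7 was less sharp, with 7 members at exactly 3 and 7 at 4 or more.

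In the alveolar macrophage group the nonclassical markers were low, some of them less so than others. Nr4a1 stood there at 172, 94.8, 161 and 252 CPM and Itgal at 322, 325, 289 and 404 CPM. Cx3cr1 stood at 11.1, 18.1, 41.2 and 46.7 CPM. Chil3, a chitinase-like gene of alveolar macrophages, reached 8476 CPM in air pnd60 and 11772 CPM in hyperoxia pnd60. Chil3 is on the list that defined this group, so its level describes that choice. These barcodes had most often passed the rule through Fcgr4, detected in 71.4% to 96.7% of them, together with Cd300ld, detected in 57.1% to 77.8%. Adgre4 was detected in 50% and 11.1% of them at pnd7 and in 3.33% and 15% at pnd60. The latter stood against 82.8% and 82.1% of the members outside this group and those named below.

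Another group held both classical monocyte genes, Ly6c2 and Ccr2, and counted 16, 16, 48 and 65 members. It stood between the other groups: Cx3cr1 was at 388, 175, 701 and 643 CPM, and Spn, which encodes the leukocyte surface protein CD43, was at 161, 44.9, 119 and 228 CPM. Clec4a1 was detected in 93.8% to 100% of this group and Cd300e in 0% to 1.54%. Cd300e, which encodes an activating receptor, was found in 38%, 58.1%, 38.8% and 51% of the members outside both groups and the sets named below. Both genes belong to the rule, so these shares only describe who passed it.

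Other sets of members carried mesenchymal genes (14, 1, 7 and 19 members), alveolar or airway epithelial genes (14, 3, 15 and 12), endothelial genes (4, 7, 15 and 15), neutrophil genes (4, 6, 3 and 10) or more than 5% hemoglobin (12, 3, 3 and 1). Dendritic cell genes marked 1, 1, 2 and 8 members, genes of T and NK cells marked 1, 0, 4 and 3, and B cell genes marked 1 in hyperoxia pnd60. No member reached the limit of 2 platelet genes. A barcode could fall in several sets, and deep barcodes meet such limits more easily than shallow ones. The doublet caller marked 1, 1, 10 and 12 members, but at pnd7 it marked under 0.5% of the filtered barcodes and so cannot be relied on there.

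After all of these were set aside, 50, 43, 116 and 151 members remained, which was 52.1%, 55.8%, 52% and 51% of the members and 35.9%, 31.1%, 34.3% and 33.1% of their counts. They are called core members below. The limits that define them were chosen after the values were seen, and the values below name whether they are those of all members or of core members.

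Core members held the known nonclassical genes at higher levels than all members together. Barcodes with genes of other cells had been set aside, so these levels partly describe that choice. Cx3cr1 stood at 741, 840, 953 and 935 CPM, and the nuclear receptor gene Nr4a1 at 1427, 1296, 2571 and 3073 CPM. Ace, which encodes the angiotensin-converting enzyme, stood at 737, 549, 1394 and 1434 CPM, and Pou2f2, a transcription factor gene, at 1375, 1140, 2171 and 2086 CPM. Both pnd60 libraries were above both pnd7 libraries for all 4 genes, though for Cx3cr1 the intervals of the 2 ages overlapped in air and after hyperoxia. Itgal, which encodes an integrin chain that binds ICAM-1, stood at 1483, 1199, 1525 and 1634 CPM, lowest in hyperoxia pnd7, with log2 ratios of -0.31 (-0.54 to -0.08) between hyperoxia and air at pnd7 and of 0.45 (0.25 to 0.65) between ages after hyperoxia. Pou2f2 is not particular to monocytes, since B cells held 554 to 1029 CPM of it.

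**Figure D1:**
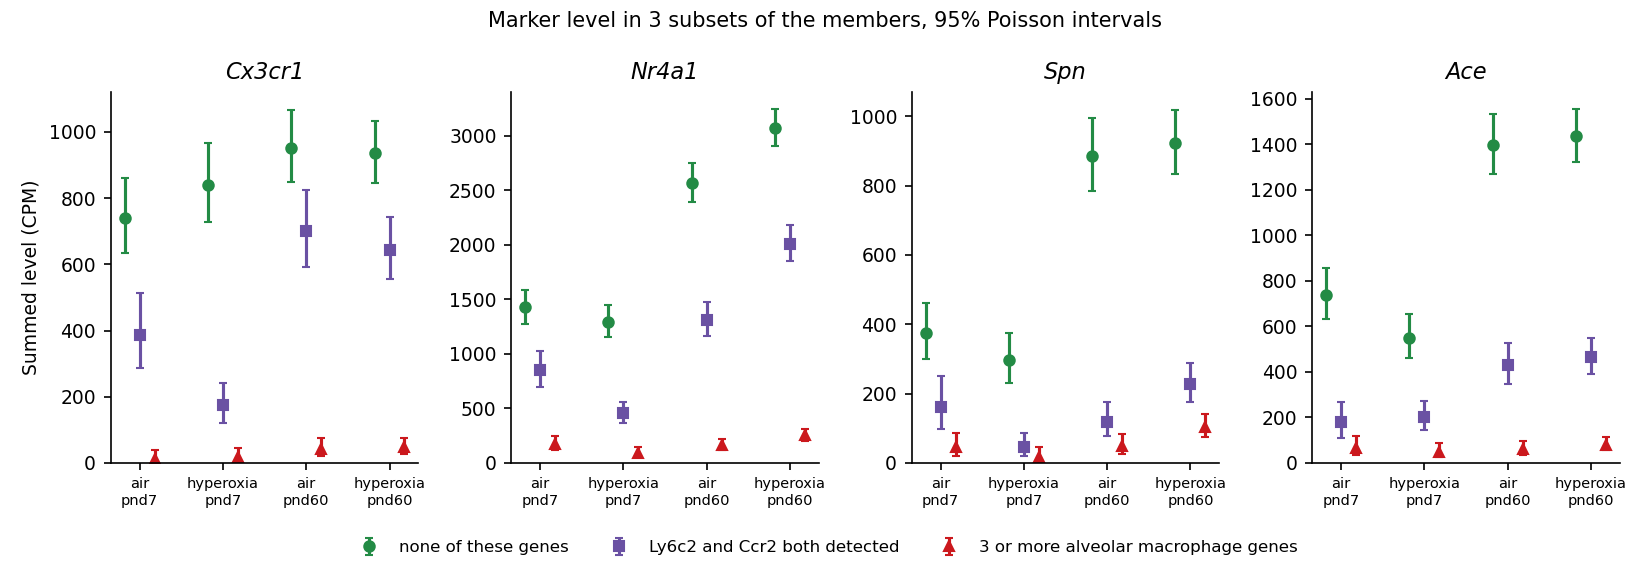
Summed level (CPM, y axes from 0, with 95% Poisson intervals) of Cx3cr1, Nr4a1, Spn and Ace in 3 subsets of the members in each library (x axes). In every panel and library the core members (circles) lie highest and the members with alveolar macrophage genes (triangles) lowest, for Cx3cr1 between 11.1 and 46.7 CPM.

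The share of members among filtered barcodes was 4.16% (3.38 to 5.06) in air pnd7, 6.18% (4.91 to 7.66) in hyperoxia pnd7, 5.07% (4.44 to 5.76) in air pnd60 and 6.22% (5.55 to 6.95) in hyperoxia pnd60. It was higher after hyperoxia than in air at both ages, with a log2 ratio of 0.57 (0.12 to 1.02) at pnd7 and 0.30 (0.04 to 0.55) at pnd60. Core members made up 2.17%, 3.45%, 2.64% and 3.17% of filtered barcodes, also higher after hyperoxia at each age, but the intervals at pnd60 overlapped (2.18 to 3.16 and 2.70 to 3.71), as did those at pnd7 (1.61 to 2.85 and 2.51 to 4.62). Barcodes thinned to 1000 counts before the rule was applied gave 1.52%, 2.65%, 2.64% and 2.76%, so that at pnd60 the libraries lay closer together than without thinning.

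Across age the share depended on what it was taken of. Of the filtered barcodes the log2 ratio of pnd60 to pnd7 was 0.29 (-0.07 to 0.65) in air and 0.01 (-0.36 to 0.39) after hyperoxia. In air it was 0.80 once all barcodes were thinned to 1000 counts, and without barcodes holding Csf3r, Cxcr2 or Retnlg it was 0.66 in air and 0.49 after hyperoxia. Of the barcodes with Ptprc, the gene of the leukocyte antigen CD45, members made up 13.1% and 22.6% at pnd7 but 9.13% and 11% at pnd60. B cells among the filtered barcodes numbered 155 and 72 at pnd7 and 1229 and 1302 at pnd60. Of the monocytes and C1q-high macrophages gated with the members, members were 42.9%, 57%, 55.6% and 62.4%. With 1 library per condition, a difference between conditions and a difference between dissociations cannot be told apart.

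**Figure D2:**
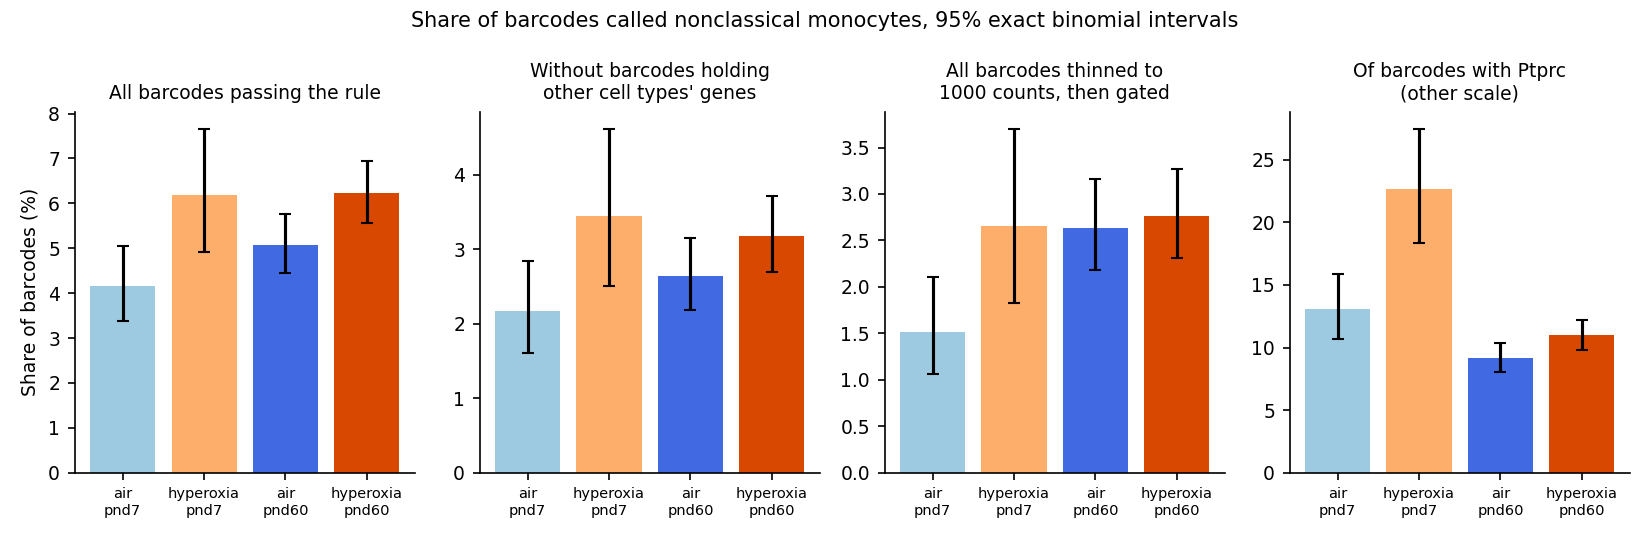
Share of barcodes (%, y axes from 0 and on their own scale in each panel, with 95% exact binomial intervals) that passed the rule in each library (bars). The hyperoxia bar is above the air bar at each age in all 4 panels, by most at pnd7, and the interval at pnd60 after thinning spans the air value of 2.64%.

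More genes differed by age than by exposure. In members of air lungs, 383 of the 5231 genes with at least 50 counts (7.32%) were at least 2-fold higher at pnd60 than at pnd7 and 250 (4.78%) at least 2-fold lower. After hyperoxia the counts were 440 (7.16%) and 334 (5.43%) of 6149 genes. In core members 132 of 2130 genes (6.2%) were higher and 110 (5.16%) lower in air, and 189 (7.38%) and 117 (4.57%) of 2562 after hyperoxia. These comparisons share no library, and among the 2069 genes counted in both, 64 were higher in both, which was 50.8% of the genes called in air and 42.4% of those called after hyperoxia. Another 43 were lower in both, 40.2% and 47.3% of the genes called. Some genes of other cells also differed between ages in core members. All 4 counted red blood cell genes were at least 2-fold lower at pnd60 in air and after hyperoxia, with medians of -4.18 and -5.29. Of 3 counted alveolar macrophage genes, 2 were higher in each and none lower, with medians of 2.59 and 2.36. The part of such genes in the counts of called genes was not tested.

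Many genes that cells switch on within minutes of a stimulus were higher at pnd60. In core members of air lungs, 11 of 16 counted genes of the immediate early and heat shock list were at least 2-fold higher at pnd60 and none lower, where 8.11% of all genes with 20 counts or more were higher. The median log2 ratio was 1.15, beside 0.06 over all such genes. After hyperoxia 7 of 16 were higher, with a median of 0.82, beside a background of 9.78% and a median over all genes of 0.07. In all members the medians were 1.13 and 0.99, and the backgrounds 10% and 9.3%.

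Dusp1, which encodes a phosphatase that turns off MAP kinases, stood in core members at 789 CPM in air pnd7, 1621 in hyperoxia pnd7, 4899 in air pnd60 and 3252 in hyperoxia pnd60. The pnd60 levels did not overlap the pnd7 levels, and the ratio was 6.21-fold in air (log2 2.64, 2.41 to 2.86) and 2.01-fold after hyperoxia (log2 1.0, 0.84 to 1.17). Zfp36, whose product tristetraprolin speeds the decay of cytokine mRNAs, stood at 1008, 1153, 3060 and 3054 CPM, with log2 ratios of 1.60 (1.39 to 1.81) and 1.41 (1.22 to 1.60), and of 1.57 and 1.59 in all members. Btg2, a gene that restrains cell growth, stood at 565, 663, 1772 and 1601 CPM, a 3.14-fold and a 2.42-fold ratio, and at 428, 381, 1204 and 1189 CPM in all members. For both genes the libraries of each age lay close together.

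The same genes were also higher at pnd60 in cells outside the members. In B cells Dusp1 stood at 63.7, 49.8, 428 and 338 CPM and Zfp36 at 234, 197, 646 and 755 CPM. In all filtered barcodes outside the members Dusp1 stood at 310, 358, 1038 and 828 CPM. Jun did not follow this order there, at 931, 1004, 914 and 965 CPM, while in core members it stood at 177, 372, 857 and 862 CPM. The part that handling of the lungs at each age had in these levels was not tested.

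The promoters of 3 genes of the list are shown because the genes moved together across age and because the letters bound by CREB-type factors, TGACG or its reverse complement CGTCA, occur in each of them. The 250 bases before the start of each gene are from RefSeq on GRCm38.p6, 5′ to 3′ on the gene's strand, with matches on either strand in capitals. Nr4a1 lies on the plus strand at chr15:101266596-101266845, Dusp1 on the minus strand at chr17:26508473-26508722 and Btg2 on the minus strand at chr1:134079156-134079405.
Nr4a1: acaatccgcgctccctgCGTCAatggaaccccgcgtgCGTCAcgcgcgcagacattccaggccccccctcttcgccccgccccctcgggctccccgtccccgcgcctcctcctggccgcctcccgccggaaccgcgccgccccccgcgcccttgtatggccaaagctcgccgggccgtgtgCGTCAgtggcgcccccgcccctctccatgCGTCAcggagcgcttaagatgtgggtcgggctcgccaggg
Dusp1: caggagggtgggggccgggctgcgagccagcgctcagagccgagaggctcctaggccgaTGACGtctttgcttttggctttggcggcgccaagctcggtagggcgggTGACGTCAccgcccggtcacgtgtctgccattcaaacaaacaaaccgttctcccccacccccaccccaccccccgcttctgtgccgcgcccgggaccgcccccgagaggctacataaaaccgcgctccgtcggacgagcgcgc
Btg2: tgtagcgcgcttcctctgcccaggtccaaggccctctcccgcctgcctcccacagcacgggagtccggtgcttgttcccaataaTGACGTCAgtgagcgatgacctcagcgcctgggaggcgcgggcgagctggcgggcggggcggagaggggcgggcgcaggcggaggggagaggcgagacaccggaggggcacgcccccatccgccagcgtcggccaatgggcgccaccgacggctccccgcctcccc

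Nr4a1 held 4 matches, Dusp1 3 and Btg2 2, where the overlapping TGACG and CGTCA of the full site TGACGTCA count as separate matches. At least 1 match was found in 8 of the 15 list genes whose promoters were in the table and in 17.8% of all 32851 promoters of that length, and 4 or more in 0.137% of them. The full site TGACGTCA stood in Dusp1 and Btg2 and in 1.55% of all promoters. A match shows only that the letters are there.

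Nr4a1 belongs to both the immediate early list and the nonclassical list. Beside its levels in core members, given above, it stood in all members at 801, 594, 1482 and 1755 CPM and was detected in 87.5% to 91.9% of them. The log2 ratio of pnd60 to pnd7 in core members was 0.85 (0.66 to 1.04) in air and 1.25 (1.06 to 1.43) after hyperoxia. Spn stood in core members at 375, 296, 886 and 924 CPM, with log2 ratios of 1.24 (0.89 to 1.60) and 1.64 (1.27 to 2.03). Over the whole list of nonclassical genes outside the rule, 2 of 17 genes were at least 2-fold higher and 1 lower in air in core members, which is near the 8.11% and 6.87% of all genes, with a median of 0.35. After hyperoxia 5 of 17 were higher and none lower, beside 9.78% and 6.51%, with a median of 0.45. The summed level of this list was 10181, 9442, 14115 and 14217 CPM in all members. It was higher at pnd60 in other cells too, at 2408, 2182, 3993 and 3842 CPM in B cells and 2041, 1933, 4087 and 3995 CPM in all other filtered barcodes.

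Nfkbiz and Cxcl2 were also higher at pnd60. Nfkbiz, which encodes the nuclear regulator IκBζ, stood in core members at 237, 338, 1471 and 1514 CPM, a ratio of 6.21-fold in air (log2 2.63, 2.23 to 3.06) and 4.48-fold after hyperoxia (log2 2.16, 1.83 to 2.52). Its pnd60 values were alike and its pnd7 values lay far below them. In all members Nfkbiz stood at 130, 172, 856 and 828 CPM, and in B cells at 52.3, 87.2, 145 and 155 CPM. Of the cytokine and inflammation list in core members, 5 of 19 counted genes were at least 2-fold higher in air and 6 of 19 after hyperoxia, beside 8.11% and 9.78% of all genes, 1 was lower in each, beside 6.87% and 6.51%, and the medians were 0.43 and 0.48. In all members 9 of 24 and 8 of 24 were higher and 1 lower in each, with medians of 0.81 and 0.64, beside 10% and 9.3% of all genes that were higher and 6.51% and 7.6% that were lower. Not all chemokine genes were higher: Ccl6 stood in all members at 1303, 2871, 2258 and 1902 CPM, lower at pnd60 than at pnd7 after hyperoxia. Cxcl2, a chemokine gene that draws neutrophils, stood in core members at 4.31, 80.2, 521 and 243 CPM, where the first value was 1 count.

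Between ages, interferon-stimulated genes had lower medians in core members than in all members, over fewer counted genes. In all members 9 of 21 counted genes were at least 2-fold higher at pnd60 in air and 15 of 23 after hyperoxia, with medians of 0.91 and 1.19 and none lower. Of all genes with 20 counts or more, 10% and 9.3% were higher. In core members 1 of 10 and 6 of 13 were higher, beside 8.11% and 9.78%, with medians of 0.43 and 0.78, so that the count in air lay near its background. The summed level of the list in all members was 4274, 4159, 6112 and 6184 CPM, and outside the members it was also higher at pnd60, at 1782, 1665, 3892 and 3891 CPM in B cells and 1341, 1457, 3072 and 3225 CPM in all other filtered barcodes. Irf7, the interferon regulatory factor that amplifies the response, stood in core members at 86.2, 50.7, 141 and 130 CPM.

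Antigen presentation could be read from few genes, because most class II genes of the list had almost no counts in these files. Cd74, the invariant chain that guards class II molecules, stood in all members at 417, 272, 2957 and 4269 CPM, with log2 ratios of 2.82 (2.64 to 3.01) and 3.97 (3.77 to 4.18). In core members it stood at 99.1, 646, 2968 and 4469 CPM, but single members supplied 69.3% of the counts in hyperoxia pnd7 and 29.4% in hyperoxia pnd60. B cells held 6322 to 12699 CPM of Cd74, and all other filtered barcodes 1192, 1221, 5026 and 5207 CPM, above the members in every library and also higher at pnd60. The part of free RNA in the Cd74 level was not tested.

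Some genes marked the adult cells at low levels. Epas1, which encodes the hypoxia-inducible factor HIF-2α, stood in core members at 4.31, 16.9, 182 and 163 CPM, where the pnd7 values were 1 and 4 counts. L1cam, an adhesion gene, stood at 56, 38, 233 and 229 CPM, with log2 ratios of 2.06 (1.20 to 3.03) and 2.59 (1.61 to 3.76). Clec2i, a lectin-like gene, stood at 21.5, 4.22, 217 and 260 CPM. In all members the Epas1 level of hyperoxia pnd7 was 259 CPM, close to the 285 CPM of air pnd60, and the members with 3 or more endothelial genes in that library carried 21.9% of its member counts.

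**Figure D3:**
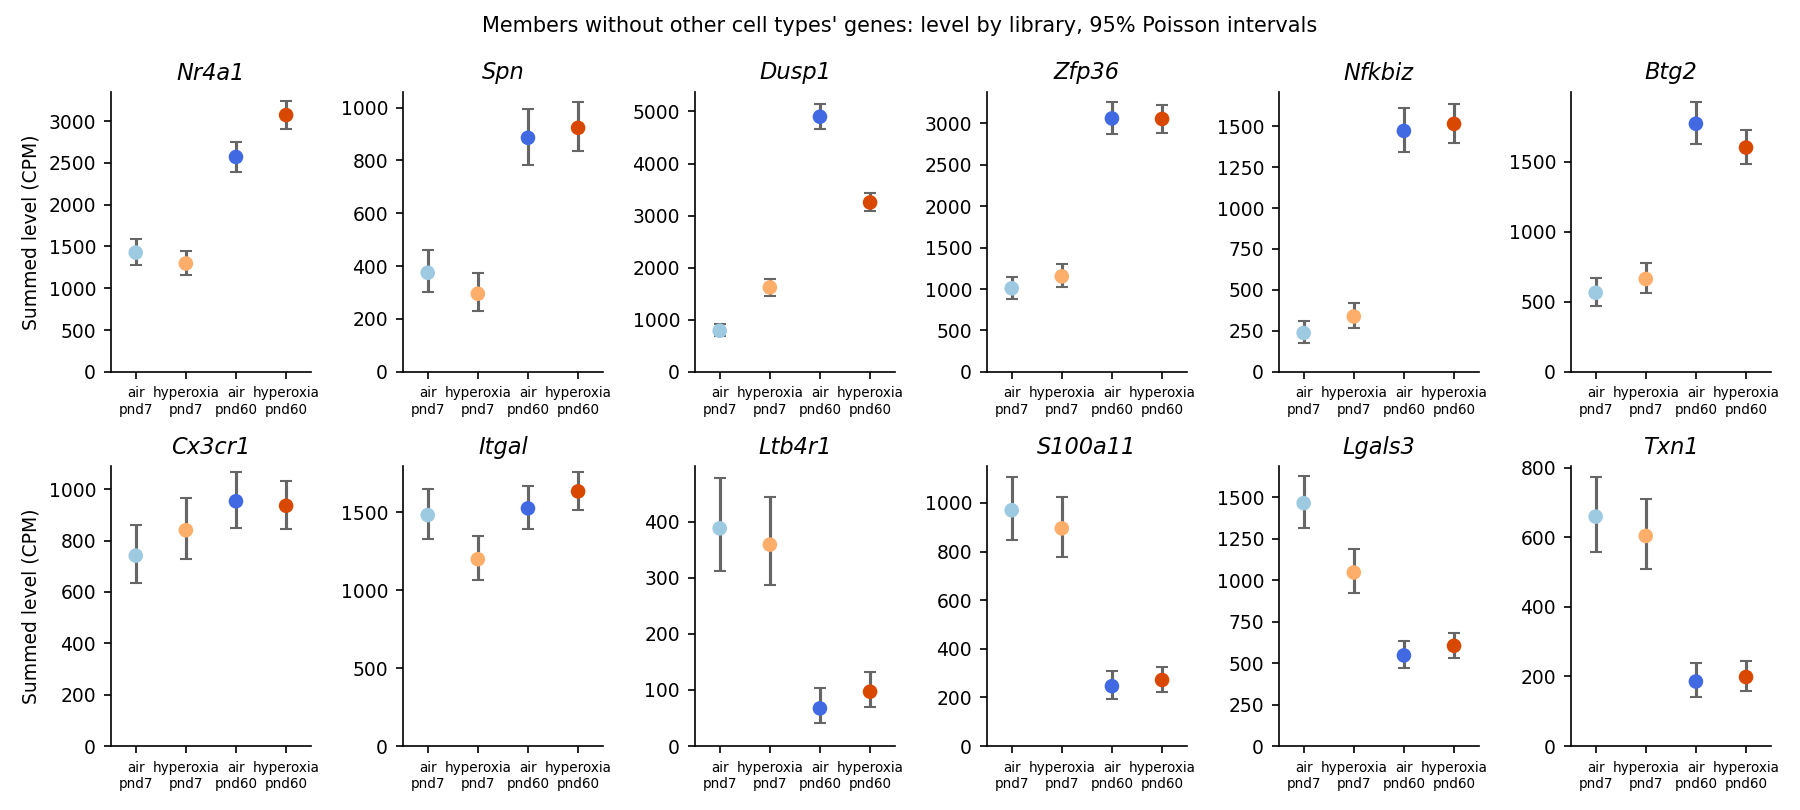
Summed level in core members (CPM, y axes from 0, with 95% Poisson intervals) of 12 genes in the 4 libraries (x axes). Nr4a1, Spn, Dusp1, Zfp36, Nfkbiz and Btg2 are higher in both pnd60 libraries, Ltb4r1, S100a11, Lgals3 and Txn1 are lower, and Itgal lies between 1199 and 1634 CPM.

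Genes lower at pnd60 included Ltb4r1, S100a11, Txn1 and Lgals3. Ltb4r1, which encodes the receptor for the chemoattractant leukotriene B4, stood in core members at 388, 359, 67.2 and 96.8 CPM, 5.78-fold lower in air (log2 -2.53, -3.29 to -1.83) and 3.71-fold lower after hyperoxia (log2 -1.89, -2.46 to -1.34). Its pnd7 values lay close together and far above those at pnd60. Ltb4r1 was nearly absent from B cells, at 0 to 1.21 CPM, and stood at 50.5 to 230 CPM in all members.

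S100a11, a calcium-binding protein gene, stood in core members at 970, 895, 246 and 272 CPM, with log2 ratios of -1.98 (-2.37 to -1.60) and -1.72 (-2.06 to -1.39). Txn1, which encodes the disulfide-reducing protein thioredoxin, stood at 659, 604, 185 and 198 CPM, and Lgals3, the gene of galectin-3, at 1465, 1047, 547 and 605 CPM. All 3 genes had their lowest core level in air pnd60. In all members the contrast was weaker, with S100a11 at 1157, 1079, 580 and 573 CPM. Capg, an actin-capping protein gene, showed almost no difference in all members, at 258, 240, 222 and 257 CPM, but stood at 233, 249, 48 and 30.7 CPM in core members.

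Adamdec1, a gene of an ADAM-like protease, was found at pnd7 and almost not at pnd60: it stood in all members at 127, 117, 1.10 and 0.782 CPM, detected in 14.6% and 24.7% of the pnd7 members and in 1 member of each pnd60 library. Single core members supplied 51.7% and 49.2% of its pnd7 core counts. Of the Fc receptor and phagocytosis list, none of 21 counted genes was at least 2-fold higher in core members in either comparison between ages. Of all genes with 20 counts or more, 8.11% and 9.78% were higher there. In the list 2 and 1 genes were lower, beside 6.87% and 6.51% of all genes, with medians of -0.17 and -0.18. In all members none of 22 was 2-fold changed, with medians of 0.097 and 0.26. Of all genes in all members, 10% and 9.3% were higher and 6.51% and 7.6% lower. Fcer1g, the chain through which Fc receptors signal, stood in core members at 3896, 3585, 2504 and 2730 CPM, with log2 ratios of -0.64 (-0.78 to -0.50) and -0.39 (-0.52 to -0.26) between ages.

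**Figure D4:**
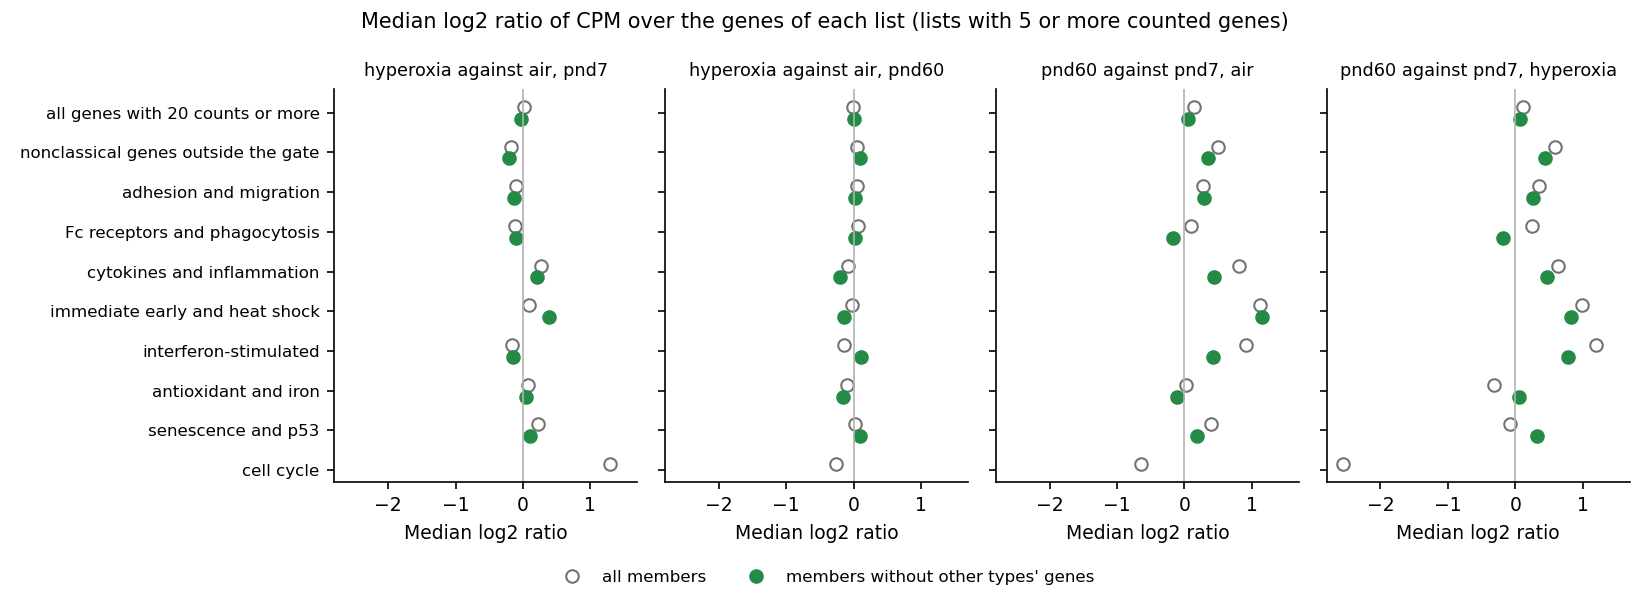
Median log2 ratio of CPM (x axes) over the genes of 9 lists and over all genes with 20 counts or more (rows) in the 4 comparisons (panels), for all members (open circles) and core members (filled circles). The immediate early list lies at 1.15 in core members between ages in air, and at pnd60 the lists lie near 0 between hyperoxia and air.

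The comparison at pnd7 asked how the cells differed soon after the exposure, once the pups were back in room air. In all members 172 of 4786 genes (3.59%) were at least 2-fold higher after hyperoxia and 110 (2.3%) lower. In core members 14 of 1783 (0.785%) were higher and 10 (0.561%) lower, a smaller share of a shorter list of genes.

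Several of the genes that led the comparison among all members stood on the lists of other cell types. Among the highest were Ccl5, Kdr, Egfl7, Tmem100 and Chil3, which is also on the classical monocyte list. Sftpc, Sftpa1, Sftpd, Col1a1, Col1a2 and Retnlg were among the lowest. Other leading genes, such as H19, Fscn1 and Ly6a, stood on none of the lists of other cell types. Sftpc, the surfactant gene of alveolar type II cells, stood at 12711 CPM in air and 219 CPM after hyperoxia, and 57.4% of its air counts came from 1 member. In core members Sftpc stood at 159 and 270 CPM. The summed level of the 10 epithelial genes in all members was 14633 and 453 CPM, led by Sftpc, with 0 and 2 of them without a count. For the 8 mesenchymal genes it was 2438 and 424 CPM, led by Eln, and for the 8 endothelial genes 362 and 1942 CPM, led by Ramp2, with 1 gene of each list at 0 in both libraries. The 10 neutrophil genes summed to 3637 and 1100 CPM, led by S100a8, with 2 and 4 at 0, and the 8 red blood cell genes to 9147 and 29789 CPM, led by Hbb-bs, with 1 at 0. Core members were defined by leaving out barcodes that passed limits on these genes, so the levels of these genes there describe that choice. The part of these genes in the counts of called genes was not tested.

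Cell cycle genes were higher after hyperoxia at pnd7 among all members, and few of them could be counted in the core. In all members 10 of 15 counted genes of the list were at least 2-fold higher after hyperoxia and none lower, where 6.3% of all genes with 20 counts or more were higher and 4.21% lower, and the median log2 ratio was 1.30. It was -0.23 when 3 or more of the 5 genes of the rule were required. Top2a, a topoisomerase gene of dividing cells, stood at 75.8 and 231 CPM in air and hyperoxia, and Mki67, the gene of the proliferation antigen Ki-67, at 32.5 and 131 CPM. A count of Mki67 or Top2a was found in 8 of 96 members in air and in 13 of 77 after hyperoxia. Of those 13, 6 were among the 9 members with alveolar macrophage genes, 4 among the 7 with endothelial genes, 2 among the 6 with neutrophil genes, 3 among the 16 with Ly6c2 and Ccr2, and 2 among the 43 core members, where a member could belong to several sets. In core members all 17 Top2a counts after hyperoxia came from 1 barcode, and air had none. Between ages after hyperoxia, 13 of 15 cell cycle genes were at least 2-fold lower at pnd60 in all members and none higher, with a median of -2.56, where 7.6% of all genes with 20 counts or more were lower. The summed level of the list was 1220, 2187, 893 and 926 CPM in all members and followed the same order at pnd7 and between ages in other cells, at 1968, 2443, 653 and 544 CPM in B cells and 2450, 3289, 939 and 907 CPM in all other filtered barcodes. In core members too few of the genes were counted to describe the list: 3 genes had 20 counts or more in each of these comparisons, with medians of 0.71 at pnd7 and -0.45 between ages.

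Ccl6, a chemokine gene of macrophages, showed the same split. It stood in all members at 1303 CPM in air and 2871 CPM after hyperoxia, a log2 ratio of 1.14 (1.02 to 1.26). In core members it stood at 1168 and 1284 CPM, a log2 ratio of 0.14 (-0.10 to 0.38).

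Within the core at pnd7, a minority of the immediate early list was higher after hyperoxia. Of this list 4 of 16 genes were at least 2-fold higher and none lower, with a median of 0.39, where 3.36% of all genes with 20 counts or more were higher. In all members 1 of 16 was higher and none lower, with a median of 0.087, beside 6.3%. Dusp1 stood at 789 and 1621 CPM (log2 1.04, 0.78 to 1.30), and Jun at 177 and 372 CPM (log2 1.07, 0.52 to 1.64), although single members supplied 39% and 29.5% of the Jun counts. Socs3, a feedback inhibitor of cytokine signalling, stood at 77.6 and 194 CPM (log2 1.32, 0.51 to 2.20). In all members the log2 ratios were 0.48 (0.32 to 0.64) for Dusp1, 1.25 (0.99 to 1.51) for Jun and 1.03 (0.46 to 1.63) for Socs3. In B cells Dusp1 stood at 63.7 and 49.8 CPM and Socs3 at 7.96 and 12.5 CPM.

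Slc12a2, which encodes a sodium, potassium and chloride cotransporter, stood in core members at 1073 CPM in air pnd7, 502 in hyperoxia pnd7, 432 in air pnd60 and 446 in hyperoxia pnd60. Air pnd7 was the high library and the other 3 lay together, which gave a log2 ratio of -1.09 (-1.42 to -0.77) between hyperoxia and air at pnd7 and of 0.05 (-0.28 to 0.38) at pnd60. All members gave 462, 206, 202 and 194 CPM in the same order. Other filtered barcodes held Slc12a2 at 116, 125, 125 and 111 CPM, without that pattern. Slc12a2 was named after its values were ranked in core members. In that ranking at pnd7, Mt1, a gene of the antioxidant and iron list, stood lower than Slc12a2. Among the genes higher after hyperoxia, Vegfa was ranked highest.

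None of the 16 counted nonclassical genes outside the rule was 2-fold higher or lower in core members at pnd7. Their median was -0.20, beside -0.03 over all genes. Of all genes with 20 counts or more, 3.36% were higher and 2.83% lower, so the count in so short a list lies near the background. Cx3cr1 gave a log2 ratio of 0.18 (-0.12 to 0.48), Nr4a1 of -0.14 (-0.37 to 0.09) and Spn of -0.34 (-0.82 to 0.13), intervals that include 0, whereas Ace gave -0.43 (-0.77 to -0.09). None of the 21 Fc receptor and phagocytosis genes and none of the 9 interferon-stimulated genes was 2-fold changed in either direction. Of the 16 antioxidant and iron genes 1 was lower, where 2.83% of all genes with 20 counts or more were lower. The cytokine and inflammation list had 2 of 18 counted genes higher in core members and none lower, with a median of 0.20. In all members 5 of its 22 counted genes were higher and none lower, with a median of 0.26. Of all genes in all members, 6.3% were higher and 4.21% lower. Over all genes with 20 counts or more in core members, the limits of the log2 ratio had medians of -0.84 and 0.82. Smaller differences were thus not detectable for most genes at this depth. The limits were narrower for the nonclassical list, with medians of -0.52 and 0.11, and for the Fc receptor list, with -0.50 and 0.29. For the interferon-stimulated list they were -0.99 and 0.34.

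The comparison at pnd60 asked what remained in adult lungs after neonatal hyperoxia. In all members 40 of 6342 genes (0.631%) were at least 2-fold higher and 42 (0.662%) lower. In core members 19 of 2825 (0.673%) were higher and 22 (0.779%) lower. Of 4615 genes counted at both ages in all members, 126 were called higher at pnd7 and 24 at pnd60, and 2 of them at both ages, which is 1.59% and 8.33% of those called. Lower genes numbered 73 and 21, with 4 shared (5.48% and 19.0%). In core members 10 and 3 were higher and 8 and 10 lower of 1730, with none shared, numbers too small to read an overlap from.

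Ftl1, which encodes the light chain of the iron store ferritin, stood in core members at 582 CPM in air and 1205 CPM after hyperoxia, a 2.07-fold ratio (log2 1.05, 0.80 to 1.30). At pnd7 the order was the opposite, at 1168 and 781 CPM, a log2 ratio of -0.58 (-0.86 to -0.31). The pnd60 difference was not particular to the monocytes: B cells held 216 and 436 CPM of Ftl1 and all other filtered barcodes 316 and 707 CPM. Lyz2, the lysozyme gene of myeloid cells, showed the same in all members at 961 and 1481 CPM and in other barcodes at 587 and 1010 CPM.

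Hmox1, the heme oxygenase gene, was lower after hyperoxia in adult core members, at 403 and 96.8 CPM (log2 -2.06, -2.60 to -1.54), and 34.1% of the air counts came from 1 member. Hmox1 was detected in 19.8% of core members in air and 18.5% after hyperoxia, so the shares of core members with the gene differed less than the level. In all members it stood at 193 and 72.7 CPM. Ddit4, an inhibitor of mTORC1 signalling, stood in core members at 179 and 44.9 CPM (log2 -2.0, -2.83 to -1.22), detected in 20.6% and 6.42% of all members. In B cells Ddit4 stood at 32.6 and 16.7 CPM.

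Cxcr4, the receptor gene for CXCL12 that holds leukocytes in marrow and lung vessels, stood in core members at 560 CPM in air and 215 CPM after hyperoxia (log2 -1.38, -1.76 to -1.01). Air pnd60 was the high library of the 4, with 103 and 118 CPM at pnd7. In B cells Cxcr4 stood at 490 and 289 CPM and in other filtered barcodes at 167 and 114 CPM, lower after hyperoxia as well. Cxcl2 stood in core members at 521 and 243 CPM (log2 -1.10, -1.47 to -0.73) and Dusp1 at 4899 and 3252 CPM (log2 -0.59, -0.70 to -0.49). The glucocorticoid-induced gene Tsc22d3 stood at 435 and 302 CPM in core members and at 1156 and 761 CPM in B cells.

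**Figure D5:**
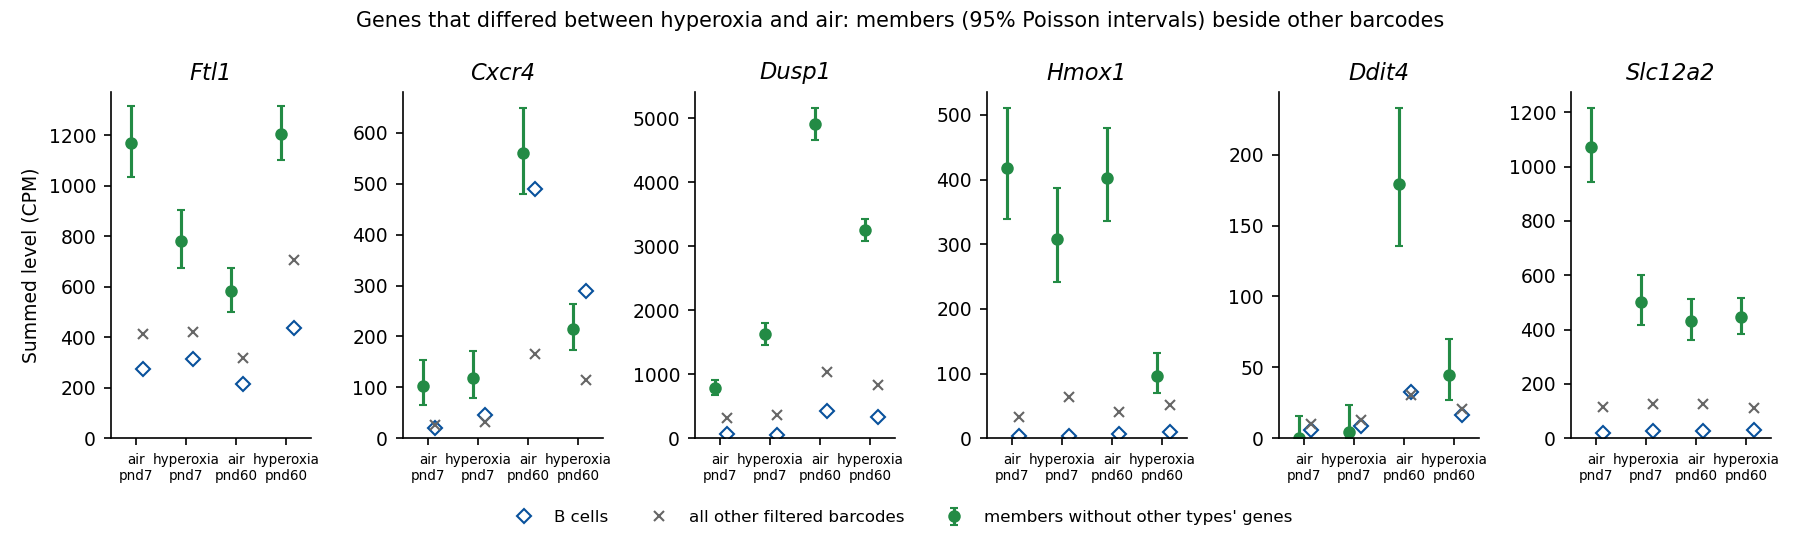
Summed level (CPM, y axes from 0) of 6 genes in core members (circles, 95% Poisson intervals), B cells (diamonds) and all other filtered barcodes (crosses) in the 4 libraries (x axes). Between air and hyperoxia at pnd60, Ftl1 is higher and Cxcr4 lower in all 3 sets of cells, whereas Slc12a2 is at 1073 CPM in core members of air pnd7 alone and flat elsewhere.

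Adult core members showed no 2-fold difference between air and hyperoxia in 17 nonclassical, 21 Fc receptor and phagocytosis and 16 immediate early genes. The medians of these lists were 0.10, 0.02 and -0.14. Of all genes with 20 counts or more, 3.01% were higher and 2.4% lower, so these counts lie near the background. Over all such genes the limits of the log2 ratio had medians of -0.77 and 0.78. Other lists held a few changed genes in core members. Of the classical monocyte genes 2 of 11 were lower after hyperoxia, and none was higher. Among the adhesion and migration genes 2 of 17 were lower, as were 2 of 17 interferon-stimulated genes, with none higher. The antioxidant and iron list had 1 gene higher and 1 lower of 17. Cx3cr1 gave a log2 ratio of -0.03 (-0.25 to 0.19), Ace of 0.04 (-0.14 to 0.22) and Spn of 0.06 (-0.17 to 0.29). Nr4a1 was slightly higher after hyperoxia, with a log2 ratio of 0.26 (0.13 to 0.39). Of the senescence and p53 list none of 13 counted genes was 2-fold changed, and Cdkn1a, the gene of the cell cycle inhibitor p21, stood at 109 and 61.4 CPM on 34 and 26 counts. In all members none of the 17 nonclassical or 17 immediate early genes was 2-fold changed either, beside 1.97% of all genes with 20 counts or more that were higher and 2.14% that were lower.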

How the data were processed

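The authors dissociated lungs, made 10x 3′ libraries and deposited unique molecular counts per barcode, with mm10 and Cell Ranger named in the labels and Cell Ranger 3.1.0 in the matrix headers. The labels also name Seurat 3.2.1, but no cell annotation was used here. The 42454 features include 2346 further copies of a gene name, and 36 of the 378 genes of the lists had fewer than 100 counts. Counts of members were summed per library and given as CPM with Poisson intervals. Ratios of CPM carry binomial intervals, 3 counts replaced a 0, and a gene was called at 2-fold or more with at least 50 counts in both libraries together (20 for the 17 gene lists and the 12 lists of other cell types). The members and lists were chosen with earlier results of these data known. Named genes were the list genes and the genes ranked highest and lowest by ratio, and, in a ranking added later, those of core members. The C12FDG-sorted library was left out of comparisons. Doublets were scored with Scrublet in scanpy 1.11.5 and kept. Intervals were tried on simulated Poisson counts. Those counts hold no spread between members, so the trial cannot show how the intervals behave where single members supply much of a gene's counts. Python 3.11.15, numpy 2.4.6 and scipy 1.17.1 were used. Alternative filters, gates, minimum counts and thinning to 1000 counts were tried.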

Additional observations from a re-analysis of the deposited data

Results flagged for a closer look

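Among the 326 genes compared at both ages, 11 had ratios of hyperoxia to air past 2-fold in opposite directions at pnd7 and pnd60 in all members; the difference itself was not tested. Endothelial genes were higher after hyperoxia at pnd7 and lower at pnd60, with log2 ratios of 2.13 and -1.10 for Cdh5, 2.57 and -1.30 for Lyve1, 2.29 and -1.26 for S1pr1 and 4.33 and -1.22 for Scn7a. Igfbp4, a binding protein for insulin-like growth factors, gave 1.13 and -1.71. Some genes of epithelial and mesenchymal cells had the opposite order, with -7.39 and 1.07 for Sftpd and -3.35 and 1.28 for Npnt (-0.089 at pnd60 in core members). Col3a1 gave -5.15 and 1.18, and Lyz1 -3.63 and 1.71. The epithelial list as a whole did not follow this order at pnd60, where 5 of 8 counted genes were higher after hyperoxia, 1 of them 2-fold. Its summed level at pnd60 was 3813 CPM in air and 3675 CPM after hyperoxia. The neutrophil genes S100a8 and S100a9 gave -1.51 and 1.43, and -2.02 and 1.91, but with 500 to 8000 genes and under 10% mt- counts as the quality filter the pnd60 ratios were -0.28 and -0.38. S100a8 had 71.9% of its air pnd7 counts in 1 member and stood at 34.5, 25.3, 9.59 and 2.36 CPM in core members of the 4 libraries.

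In the C12FDG-sorted pnd7 library, which no comparison used, 35 of 493 filtered barcodes (7.10%, 4.99 to 9.74) passed the same rule. They held Cx3cr1 at 41.1 CPM, Nr4a1 at 56.1 CPM and Plac8 at 65.4 CPM. For Cx3cr1, all unsorted pnd7 members stood at 370 and 363 CPM and those with alveolar macrophage genes at 11.1 and 18.1 CPM. The stress genes Hmox1 and Mt1 stood there at 7172 and 11518 CPM, and 26 of the 35 held exactly 2 genes of the rule.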

How the results depend on the processing

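No paired analysis was possible because 1 library stood for each condition. Libraries are named in the order air pnd7, hyperoxia pnd7, air pnd60, hyperoxia pnd60, and comparisons in the order hyperoxia against air at pnd7 and at pnd60, then pnd60 against pnd7 in air and after hyperoxia. Of the alternatives, 43 of 48 ratios of shares moved by less than the counting interval of the value reported, as did 18 of 48 shares, and 89 of 144 counts of called genes stayed within 1.5 times the value reported. The cause was not tested where a value moved. A gene with no count could lie at up to 4.64, 3.94, 3.29 and 2.35 CPM in the members of the 4 libraries, which is 3 counts of each total and covers counting error only.

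Shares of members were 2.56%, 3.85%, 3.09% and 3.47% with 3 or more of the 5 genes, 2.25%, 3.05%, 3.55% and 4.29% without barcodes holding Csf3r, Cxcr2 or Retnlg, 3.29%, 4.58%, 3.73% and 4.61% with Ly6c2 and Vcan at 0, 3.16%, 4.66%, 3.73% and 4.46% without Clec4a1 in the rule, 1.52%, 2.65%, 2.64% and 2.76% after thinning all barcodes, 13.1%, 22.6%, 9.13% and 11% of barcodes with Ptprc and 2.17%, 3.45%, 2.64% and 3.17% for core members. Without Cd300ld in the rule the pnd60 shares were 4.32% and 5.21%. The log2 ratio of shares between ages was 0.66 in air and 0.49 after hyperoxia without barcodes holding the neutrophil genes, 0.80 in air after thinning, and -0.52 and -1.05 of barcodes with Ptprc, where its sign turned.

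By the minimum count, in the 4 comparisons, 2146, 1638, 2470 and 1481 genes were higher and 2203, 2423, 3006 and 3148 lower with a minimum of 1 count; 490, 175, 816 and 813 genes were higher and 327, 190, 529 and 664 lower with 20 counts. Likewise 70, 14, 191 and 262 genes were higher and 51, 11, 128 and 142 lower with 100 counts, and 2, 13, 108 and 148 genes were higher and 7, 9, 54 and 54 lower after thinning members, where fewer genes reached the minimum. In core members 14, 19, 132 and 189 were higher and 10, 22, 110 and 117 lower. With 3 or more of the 5 genes, 67 and 205 were higher in the comparisons at pnd7 and between ages in air, and 38, 153 and 137 lower at pnd7 and between ages in air and after hyperoxia. Without barcodes holding the neutrophil genes, 80 were higher at pnd7 and 64, 74, 151 and 194 lower in the 4 comparisons. With Ly6c2 and Vcan at 0, 100 and 290 were higher at pnd7 and between ages after hyperoxia, and 214 lower in the latter. Without Clec4a1, 103 were higher at pnd7 and 191 lower between ages after hyperoxia.

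The cell cycle median depended on the gate. At pnd7 it turned from 1.30 to -0.23 with 3 or more genes, and was 2.92 without Cd300ld and 0.16 without the limit on C1q. Between ages after hyperoxia it was -2.56 as reported and -0.28 with 3 or more genes, -3.24 without the neutrophil genes, -0.32 after thinning members and -0.45 in core members. Single genes that changed sign were Mcm7 at pnd60 (0.64 with 3 or more genes), Cd209a at pnd60 (-0.51 without Cd300ld), S100a8 and S100a9 at pnd60 (-0.28 and -0.38 with another quality filter) and Cpne5 between ages after hyperoxia (-0.068 after thinning). In core members the log2 ratios of Sftpc and Sftpa1 at pnd7 were 0.76 and 0.97, of Npnt, Sec14l3 and Cbr2 at pnd60 -0.089, 0.41 and 0.022, and of Sftpa1 between ages after hyperoxia -0.14. No alternative changed the sign of the immediate early median in air or the interferon median after hyperoxia.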

Other observations

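Cdkn2a, a senescence marker gene, and Gdf15 were scarce in core members. Cdkn2a, the gene of p16 and Arf, had no count in the core members of any library and 1 count in all members of hyperoxia pnd7 and of air pnd60. Gdf15, a stress cytokine gene, stood at 34, 18.4, 32.9 and 28.9 CPM in all members of air pnd7, hyperoxia pnd7, air pnd60 and hyperoxia pnd60, and at 0, 0, 9.59 and 7.09 CPM in core members. Il1b, the interleukin-1 beta gene, was found in 40.6% to 64.9% of all members and stood at 328, 524, 499 and 548 CPM in core members. Gpx1, the glutathione peroxidase gene, stood in core members at 2586, 2783, 3057 and 3385 CPM, beside 384 to 679 CPM in B cells.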
